A study of Mus musculus with 150 samples.

Results

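The gene-dense bins are stretches of the mouse autosomes that hold the most genes. They were chosen by counting the distinct gene names listed for each bin of chromosomes 1 to 19 and taking the top 10%, with ties at the limit of 15 genes included. This gave 517 bins of 4806 autosomal bins and of 5331 bins in all. The rule uses no measured value. The gene-dense bins held a median of 19 genes (range 15 to 56), against 4 (0 to 14) in the other 4289 autosomal bins, and a median of 13 against 2 names that RefSeq lists as protein-coding. Their median length was 499.6 kb, as in the other bins. Together they listed 10700 distinct names, of which 8865 matched RefSeq and 7315 were protein-coding.

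Genes are spread unevenly along mammalian chromosomes. Gene-rich stretches tend to be rich in G and C, carry many CpG islands at the promoters of broadly used genes, sit in open chromatin and replicate early in S phase. Some are dense for another reason: tandem duplication has packed them with members of 1 family, such as olfactory receptors, zinc finger proteins or keratins. In sequencing of amplified DNA of single cells, read depth is known to vary with base composition, so depth is usually corrected bin by bin before copy number is read from it.

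Genomic DNA of 150 single cells was sequenced at low coverage, 50 cells from each of 3 lung tumours (T1, T7 and T9) of 1 mouse, animal M3. Per the labels, the animal belonged to the KP group, was taken 30 weeks after induction, and gave AT2 cells of lung tissue. AT2 cells are the surfactant-producing alveolar type 2 cells. The protocol lists strains on a mixed C57BL/6 and Sv129 background, among them Trp53flox/flox, in which Cre recombinase deletes both copies of the tumour suppressor Trp53, and reporters Rosa26LSL-tdTomato and Rosa26LSL-Luciferase that Cre switches on. It gives either AdSPC-Cre, an adenovirus with Cre behind the surfactant protein C promoter, or AdCMV-FlpO as the inducing virus. Which reporter and virus applied to this animal is not stated, nor is the meaning of ND in its group name. All 3 tumours share the animal's genotype, so no comparison here is one of genotype, and cell identity has no RNA marker in these DNA data.

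To show what the 2 kinds of gene-dense bin look like in sequence, the 250 bases before the start of 4 genes are printed from RefSeq (GRCm38.p6), with each CpG in capitals. Polr2a encodes the largest subunit of RNA polymerase II (chr11:69758634-69758883, minus strand, 62.8% G and C, 23 CpG). Rela encodes the p65 subunit of NF-kB (chr19:5637291-5637540, plus strand, 70.4%, 23 CpG). Olfr543 encodes an olfactory receptor in the gene-dense bin with the most of them, 32 of 38 genes (chr7:102477903-102478152, minus strand, 37.6%, 1 CpG). Sprr3 encodes a small proline-rich protein of the cornified envelope of skin (chr3:92458721-92458970, minus strand, 42.8%, 0 CpG).
Polr2a: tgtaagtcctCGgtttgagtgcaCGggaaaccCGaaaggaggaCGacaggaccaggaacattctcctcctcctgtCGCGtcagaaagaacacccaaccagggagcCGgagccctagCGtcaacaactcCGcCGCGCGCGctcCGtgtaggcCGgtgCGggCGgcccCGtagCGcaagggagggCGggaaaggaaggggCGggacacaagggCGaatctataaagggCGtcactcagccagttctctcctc
Rela: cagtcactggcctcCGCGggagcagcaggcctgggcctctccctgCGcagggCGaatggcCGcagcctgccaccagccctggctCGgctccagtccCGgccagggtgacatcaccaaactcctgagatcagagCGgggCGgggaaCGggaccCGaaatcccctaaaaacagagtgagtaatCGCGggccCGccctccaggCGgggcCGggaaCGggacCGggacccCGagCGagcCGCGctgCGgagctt
Olfr543: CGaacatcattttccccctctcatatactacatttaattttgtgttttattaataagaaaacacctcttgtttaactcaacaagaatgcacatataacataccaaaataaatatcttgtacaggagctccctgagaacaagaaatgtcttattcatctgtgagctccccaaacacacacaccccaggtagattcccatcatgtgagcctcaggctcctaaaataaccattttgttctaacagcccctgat
Sprr3: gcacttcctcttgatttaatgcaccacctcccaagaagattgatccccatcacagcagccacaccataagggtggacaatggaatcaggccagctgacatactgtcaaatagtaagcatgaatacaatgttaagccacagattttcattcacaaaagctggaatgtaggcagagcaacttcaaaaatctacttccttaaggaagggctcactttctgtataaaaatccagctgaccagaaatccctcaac
The first pair comes from bins of single-copy genes, the second pair from bins filled by families. RefSeq promoters, here the 250 bases before to 50 after a gene's start, were matched for 8006 starts in 508 of the gene-dense bins. Their median G and C content was 56.7% with 13 CpG, against 51.0% with 6 CpG for 17738 promoters in other bins. Of the promoters in gene-dense bins 56.2% held at least 10 CpG, against 44.5% of all 25744 autosomal promoters. Within the gene-dense bins, those without a family had a median promoter content of 58.0% and those with at least 3 members of a family 49.3%. The 450 promoters of olfactory receptor genes, in 49 gene-dense bins, had 37.0% with 1 CpG.

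Of the 150 cells, 145 passed the filters on coverage and noise: 47 of T1, 48 of T7 and 50 of T9. T1 cells were sequenced most deeply, at a median of 97.7 Mb (20.5 to 170.1), T7 cells at 69.3 Mb (24.6 to 140.3) and T9 cells most evenly, at 56.7 Mb (43.3 to 82.1). Noise, the scaled difference between neighbouring bins, had medians of 0.191, 0.146 and 0.133. All 517 gene-dense bins had depth in at least 80% of the cells. Each tumour is 1 sample, so tumours are described side by side with no test, and intervals given for shares of cells (exact Clopper-Pearson, 95%) cover counting error only.

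Every bin and cell has both a deposited depth, which is the uncorrected coverage, and a deposited log2 ratio that the authors had already corrected. Here the correction means the log2 depth minus the log2 ratio. The sources used here do not give the steps behind it, so what it holds is not known. Its shape along the genome differed between cells, and some cells stood apart from the rest of their own tumour. Over the 4289 other bins, with the gene-dense ones left out, each cell's correction was set against the median correction of each tumour (its own cell left out). It was nearest to that of T1 in 39 of 47 T1 cells, but also in 8 of 48 T7 cells and 2 of 50 T9 cells. The remaining 8 T1 cells, 40 T7 cells and 48 T9 cells were nearer to T7 or T9. Some cells lay near the border between the kinds. T7 cell 180086 had r = 0.88 with the T1 correction and 0.86 with that of T7. T1 cells 180027, 180038, 180039 and 180049, put with the rest, had 0.86 to 0.89 with T1 and 0.89 to 0.93 with T7. The 8 T7 cells had a median correlation of 0.990 with the T1 correction and 0.682 with that of T7. Their copy number followed the label: the level along the genome, over the same other bins, was nearest to T7 in all 8. Among all 145 cells the level was nearest to another tumour in 4 (1 of T1 and 3 of T7). Results below are given for all kept cells and then within each kind of correction, a split that was made after values had been seen.

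The value used throughout is a bin's departure: its log2 ratio minus the running median of 31 bins around it on the same chromosome in the same cell. Departures remove the copy number of whole arms and of the inside of large segments, so they show whether a gene-dense bin stands above or below its neighbourhood. Within 15 bins of the edge of a segment the window spans both levels, and a departure there can reflect the step in copy number. A cell's offset is the median departure of its gene-dense bins minus that of its other bins. In T1 the lowest, median and highest offsets were -0.13, -0.087 and 0.11 (SD 0.043, n = 47 cells). In T7 they were -0.13, 0.000 and 0.13 (SD 0.059, n = 48). In T9 they were -0.099, 0.0027 and 0.11 (SD 0.034, n = 50). The cells of T1 lay mostly low and those of the other tumours around 0, and the ranges of all 3 tumours overlapped. The offset was below 0 in 45 of 47 cells of T1 (95.7%, 85.5 to 99.5%), in 23 of 48 of T7 (47.9%, 33.3 to 62.8%) and in 16 of 50 of T9 (32%, 19.5 to 46.7%). In a typical T1 cell 63.4% of the gene-dense bins lay below their surroundings, against 46.7% of the other bins.

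The uncorrected depth ran the other way. Gene-dense bins carried more coverage than their surroundings in all 3 tumours: the median offset of log2 depth was 0.12 in T1 (0.012 to 0.25), 0.10 in T7 (0.00024 to 0.36) and 0.073 in T9 (-0.015 to 0.20). It was above 0 in 47 of 47, 48 of 48 and 48 of 50 cells. The offset of the correction was larger in T1, with a median of 0.23, than in T7 with 0.092 or T9 with 0.068. T1 minus T7 was thus -0.087 in the log2 ratio and 0.025 in depth, and T1 minus T9 was -0.090 and 0.052. The T1 median thus lay below the others in the log2 ratio and above them in depth. Across the 47 T1 cells the offset of the log2 ratio and that of the correction had r = -0.64 and rho = -0.38. Both are computed from the same depth, and no p-value is given.

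**Figure D1:**
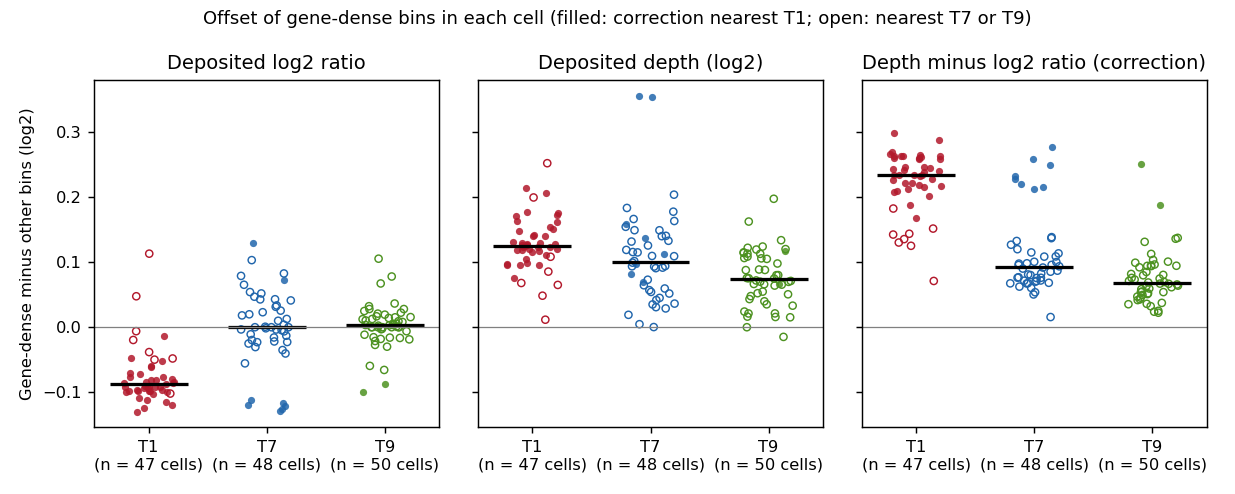
Offset of gene-dense bins against other bins (y axis, log2) for every kept cell of T1, T7 and T9, in the deposited log2 ratio, the deposited depth and the correction between them. Black lines are medians. Filled points are cells whose correction is nearest to that of T1, and open points are the rest. In the log2 ratio T1 has a median of -0.087, and 6 filled T7 points and both filled T9 points lie among the filled T1 points.

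Within 1 kind of correction the tumours lay closer together. Among cells with the T1 kind, the offset had a median of -0.092 in the 39 T1 cells (-0.13 to -0.013) and was below 0 in all 39. In the 8 T7 cells it had a median of -0.12 (-0.13 to 0.13). In the 2 T9 cells it was -0.099 and -0.087. Of the 8 T7 cells, 6 lay between -0.13 and -0.11, inside the T1 range, while cells 180086 and 180091 stood at 0.13 and 0.072. Those 2 also had the highest depth offsets of the tumour, 0.36 and 0.35. Among cells with the other kind of correction, the offset had a median of -0.029 in 8 T1 cells (-0.10 to 0.11), 0.00037 in 40 T7 cells (-0.055 to 0.10) and 0.0031 in 48 T9 cells (-0.066 to 0.11). It was below 0 in 6 of these 8 T1 cells (75%, 34.9 to 96.8%), 17 of 40 T7 cells (42.5%, 27 to 59.1%) and 14 of 48 T9 cells (29.2%, 17 to 44.1%). Both T1 cells with an offset above 0 belonged here, and the higher of them, cell 180001 at 0.11, is also the T1 cell whose level was nearest to another tumour (r of 0.37 with T9 and 0.36 with T1). Without it the highest T1 offset was 0.047 and the median -0.089. The difference T1 minus T7 was -0.087 over all kept cells, 0.026 among cells of the T1 kind and -0.029 among the rest. T1 minus T9 was -0.090, 0.0010 and -0.032. Most cells of the T1 kind thus had a lower offset than the median of the rest of their tumour. The 2 T7 cells named above did not, and T9 had only 2 cells of that kind. The log2 ratio is depth minus the correction, so offset and correction are linked by how they are computed. What sets the kind of correction in a cell was not tested.

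The offset also moved with the cell number in the labels, which the labels do not call a batch. In T7 the 24 lower-numbered cells (180051 to 180075) had a median of -0.021 with 20 below 0, and the 24 higher-numbered ones (180076 to 180100) 0.032 with 3 below 0. Of the 8 T7 cells with the T1 kind of correction, 6 were among 180051 to 180061, and the other 2 are those at 0.13 and 0.072. In T9 the medians were 0.0091 and -0.0023, and both cells with the T1 kind were among 180146 to 180150. In T1 they were -0.085 and -0.092. The T1 median lay below the others in both sets: T1 minus T7 was -0.064 among lower-numbered and -0.12 among higher-numbered cells, and T1 minus T9 was -0.094 and -0.089. This split was made after values had been seen, and what the numbers stand for was not tested.

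The profile across the 517 bins also differed between the kinds of correction. The tumour medians of T1 and T7 correlated weakly over all kept cells (r = 0.30), T1 and T9 hardly (r = 0.12), and T7 and T9 more (r = 0.59). Among cells of the T1 kind, with 8 cells of T7 and 2 of T9, the same pairs of medians had r = 0.89, 0.80 and 0.79. Among the rest they were 0.35, 0.29 and 0.62. Over the 4289 other bins and all kept cells they were 0.55, 0.20 and 0.66. The medians of the T1 kind hide T7 cells 180086 and 180091, which did not share that profile. Their gene-dense departures had r = -0.081 and -0.051 with the T1 median, against 0.72 to 0.82 in the other 6 T7 cells of that kind. With the T7 median these 2 cells had r = 0.35 and 0.32. These are descriptions over 517 bins that share base composition and neighbouring positions, with no p-value. Single cells of T1 resembled each other over the gene-dense bins, with a median r of 0.49 over 1081 pairs, while pairs within T7 had 0.12 and within T9 0.21. The other bins had the same order, with 0.45, 0.19 and 0.25. The spread of a gene-dense bin's departure over cells had median SDs of 0.17, 0.16 and 0.14 in the 3 tumours, as in the other bins (0.17, 0.16 and 0.14).

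**Figure D2:**
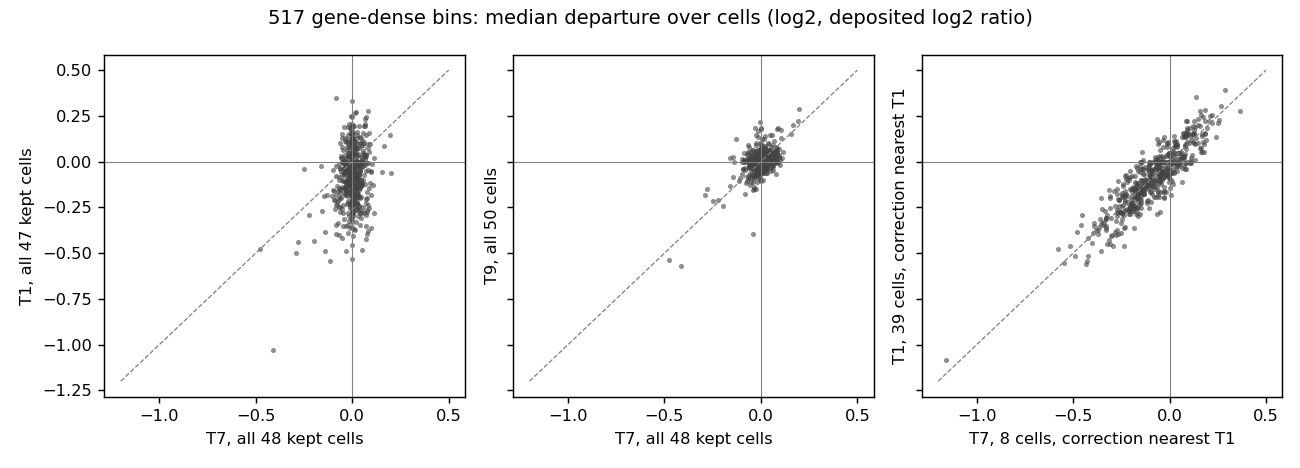
Median departure over cells of each of the 517 gene-dense bins (log2, deposited log2 ratio), for T1 against T7, T9 against T7, and T1 against T7 again with only cells whose correction is nearest to T1 (39 and 8 cells). The dashed line marks equal values. The first panel has r = 0.30 and the third r = 0.89.

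A bin was counted as low or high in a tumour where its median departure over the cells was at most -0.1 or at least 0.1. In T1, 225 of the 517 gene-dense bins were low (43.5%), against a background of 21.3% over all 4806 autosomal bins. Another 60 were high (11.6%), against 22.1%. In T7, 15 were low (2.90%, background 3.18%) and 8 high (1.55%, background 2.54%). In T9, 22 were low (4.26%, background 3.91%) and 25 high (4.84%, background 3.54%). Of the 25 high bins of T9, 12 lay on chromosome 11, where the T9 level has the step described below. The shares of T7 and T9 lay near their backgrounds, and that of low bins in T1 lay above its own. In T1 minus T7, 218 bins were lower by at least 0.1 (42.2%, background 19.1%) and 57 higher (11%, background 18.7%). In T1 minus T9, 231 were lower (44.7%, background 23.1%) and 70 higher (13.5%, background 24%).

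At a limit of 0.05, low and high gene-dense bins were 285 and 93 in T1 (backgrounds 31.6% and 34.1%), 64 and 67 in T7 (12.2% and 12.1%), and 61 and 78 in T9 (14% and 12.6%). T1 was lower in 288 and higher in 96 bins than T7 (30.9% and 32.5%), and lower in 287 and higher in 104 than T9 (33.8% and 36%). At 0.2, they were 106 and 12 in T1 (8.32% and 7.64%), 6 and 0 in T7 (0.728% and 0.77%), and 6 and 4 in T9 (0.999% and 1.12%). T1 was lower in 104 and higher in 12 bins than T7 (6.45% and 5.12%), and lower in 115 and higher in 20 than T9 (10.3% and 9.26%). At each limit, T1 had more low than high gene-dense bins.

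Within 1 kind of correction these counts changed. Among cells of the T1 kind, 243 bins were low in T1 (background 23.4%), 240 in T7 (background 22.8%) and 254 in T9 (background 27.1%). High bins were 69 (24.7%), 54 (22.4%) and 63 (26.3%). T1 minus T7 then had 55 lower bins (10.6%, background 8.99%) and 52 higher (10.1%, background 10.7%), and T1 minus T9 77 lower (background 14.5%) and 109 higher (background 16.9%). Lower and higher bins of T1 minus T7 were about as many there, close to their backgrounds. Among the rest, 91 bins were low in T1 (17.6%, background 13.6%), 14 in T7 (background 3.06%) and 22 in T9 (background 4.31%). High bins were 38 (12.5%), 26 (2.6%) and 27 (3.87%). T1 minus T7 had 121 lower bins there (23.4%, background 13.1%) and 36 higher (background 11.4%), and T1 minus T9 105 lower (background 15.2%) and 48 higher (background 15.3%), with 8 T1 cells behind each T1 value.

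Most of the low bins of T1 were not low in coverage. Of the 225 low bins of T1, 162 lay above their surroundings in depth, 127 of them by at least 0.1, and 28 lay below by at least 0.1. Their median departures were -0.19 in the log2 ratio and 0.12 in depth, and all 517 gene-dense bins also had a median of 0.12 in T1 depth. In depth the low bins thus resembled gene-dense bins at large, whose counts follow. In depth as a whole, 289 gene-dense bins were high in T1 (55.9%, background 33.6%) and 56 low (10.8%, background 33.5%). In T7, 249 were high (48.2%, background 25.6%) and 69 low (background 26%), and in T9, 240 high (46.4%, background 28.3%) and 98 low (background 28%). The depth of T1 was higher than that of T7 in 187 bins (36.2%, background 29.9%) and lower in 147 (28.4%, background 34.8%). Against T9 it was higher in 229 (44.3%, background 35.6%) and lower in 153 (29.6%, background 37.6%). Low bins overlapped between tumours: 13 were low in T1 and T7 (5.78% of the T1 list, 86.7% of the T7 list), 10 in T1 and T9 (4.44% and 45.5%), 9 in T7 and T9 (60.0% and 40.9%), and 7 in all 3. The share of the T9 list is close to the 43.5% of all gene-dense bins that were low in T1. High bins shared by T1 and T7 were 1 (1.67% and 12.5%), by T1 and T9 4 (6.67% and 16%) and by T7 and T9 6 (75% and 24%).

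The departure of T1 varied with gene number over the whole range of bins. With all autosomal bins split into deciles by gene number, the T1 median of the log2 ratio rose from -0.00052 in the poorest decile to 0.037 in the fourth and fell to -0.024 in the ninth and -0.069 in the richest. The medians of T7 and T9 stayed near 0 in every decile. Bins with equal gene numbers were divided between deciles in the order they were listed. The poorest decile and the next thus both hold bins with 0 genes, and the step between them is not only one of gene number. In depth T1 ran from -0.21 in the poorest to 0.12 in the richest decile, while the richest decile stood at 0.094 in T7 and 0.085 in T9. Among the gene-dense bins themselves, T1 medians were -0.062 for the 290 bins of 15 to 19 genes, -0.067 for 169 of 20 to 29 genes and -0.096 for 58 of 30 or more. The 79 bins at the limit of 15 genes had a T1 median of -0.031, and the 100 bins just outside it, with 14 genes, -0.052.

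**Figure D3:**
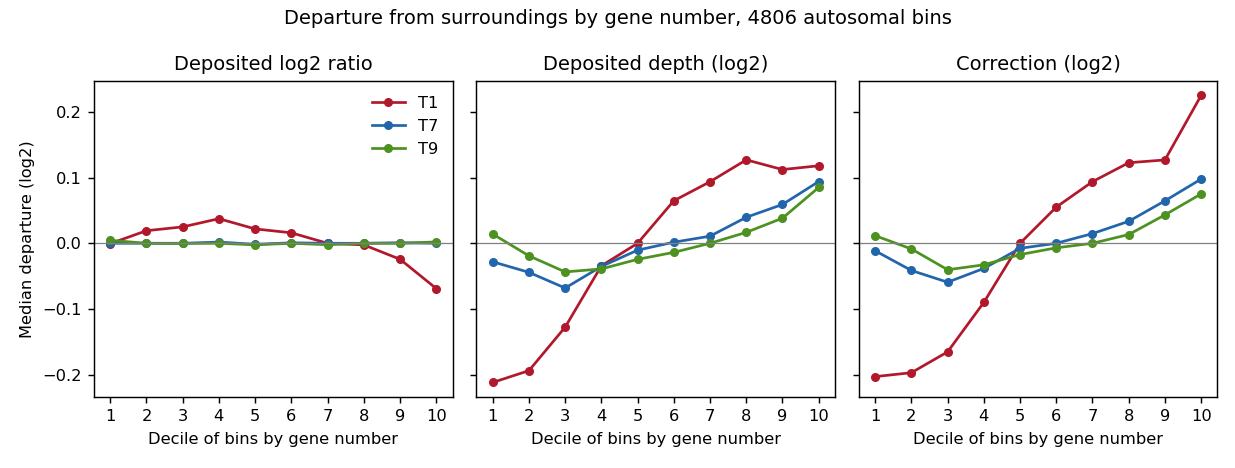
Median departure (y axis, log2) of autosomal bins in deciles by gene number, from fewest to most genes, for the deposited log2 ratio, the deposited depth and the correction. Lines are the 3 tumours over all kept cells. The richest decile of T1 stands at -0.069 in the log2 ratio and at 0.12 in depth.

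The deposited weight, a score for each bin that is the same in all cells, also divided the gene-dense bins. Of these, 37.1% fell in the lowest quartile of weights of all autosomal bins (at most 0.783), against 23.5% of other bins. The 192 low-weight gene-dense bins had a T1 median of -0.18, with 135 low and 10 high. The 325 others had -0.022, with 90 low and 50 high. Among bins that are not gene-dense, the 1010 in the same quartile had a T1 median of 0.015, with 349 low and 367 high, and the remaining 3279 had 0.0019, with 451 low and 633 high. Without that quartile the T1 offset was -0.028, with 85.1% of T1 cells below 0. Isolated bins stood lower than crowded ones: T1 medians were -0.084 for bins with at most 5 gene-dense bins in their window of 31, -0.080 for 6 to 10 and -0.034 for 11 or more. The running median itself rests partly on gene-dense bins where they crowd. With those bins left out of it, the T1 offset was -0.12. The 517 bins formed 278 runs, 169 of them of 1 bin. The longest run, of 11 bins on chromosome 7 (chr7:100459939-105973874), is an olfactory receptor cluster for much of its length and had a T1 median of -0.021.

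Bins dense in families differed by family. Of the 517 bins, 92 held at least 3 members of a listed family and 425 did not, with T1 medians of -0.046 and -0.075. Counts of single families are read beside the 43.5% low and 11.6% high of all 517 gene-dense bins in T1. Over all autosomal bins the shares were 21.3% and 22.1%. Zinc finger bins, clusters of DNA-binding repressors, were the lowest large class: 25 bins had a T1 median of -0.15, with 14 low and 4 high, and 0.000 in T7 and T9. Olfactory receptor bins lay near their surroundings: 37 bins had a T1 median of -0.014, with 11 low and 5 high. Their depth was below the surroundings in T1 (-0.18) and above them in T7 (0.035) and T9 (0.074). Bins of these families that are not gene-dense had T1 medians of -0.14 over 15 zinc finger bins (9 low, 0 high) and -0.062 over 38 olfactory receptor bins (15 low, 5 high). Vomeronasal receptor bins, for pheromone receptors, had a T1 median of -0.10 over 6 bins. Bins of the major histocompatibility complex, which presents antigens, had -0.022 over 6. Keratin bins, for the intermediate filaments of epithelia, went the other way, with a T1 median of 0.22 over 4 bins. The 2 kallikrein bins, of secreted serine proteases, stood at 0.15 each. Members of a family share sequence, and reads could map to several copies.

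The offset was spread over the chromosomes. In T1 it was below 0 on 18 of 19 autosomes, with a median of -0.10, and stood at 0.000 on chromosome 7, which had the most gene-dense bins (69, or 24.4% of its bins). The lowest values were -0.17 on chromosomes 16 and 18, with 14 and 4 gene-dense bins. T7 ranged from -0.034 to 0.0089 and T9 from -0.026 to 0.020. Their lowest values were both on chromosome 14, whose 10 gene-dense bins include the lowest one in T1 and T9. In depth the offset was above 0 on 19, 19 and 18 autosomes, the exception being chromosome 17 in T9, at 0.000.

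**Figure D4:**
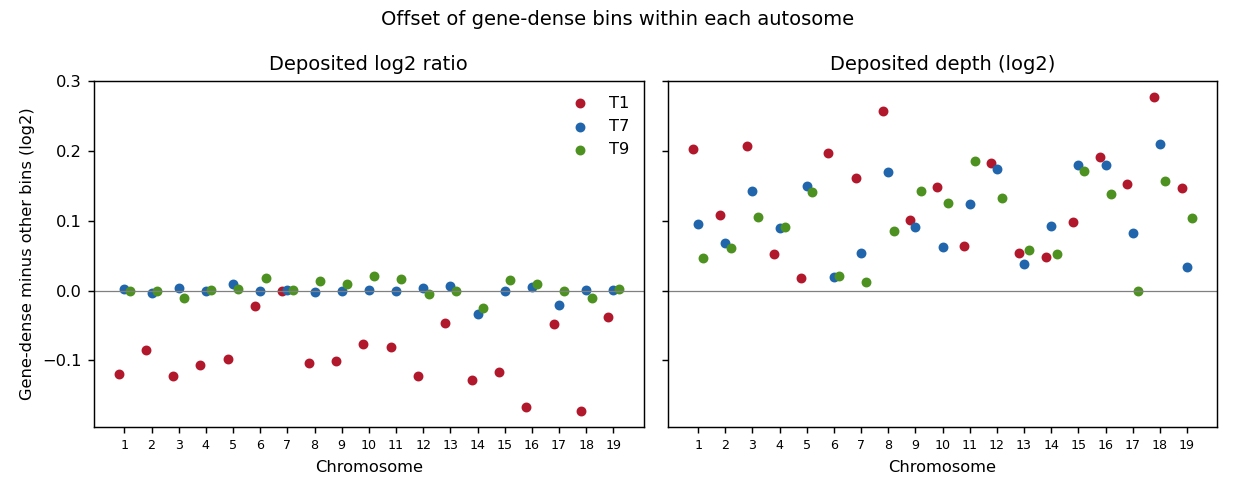
Offset of gene-dense bins against other bins of the same autosome (y axis, log2), as the difference of medians of the tumour medians per bin, in the deposited log2 ratio and the deposited depth. Each point is 1 autosome in 1 tumour. T1 lies below 0 in the log2 ratio on 18 of 19 autosomes and above 0 in depth on all 19.

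The bins with the most genes come first. The richest, with 56 genes, was chr17:34714932-35216367 in the histocompatibility region, with the complement genes C4b and C2 and the heat shock genes Hspa1a and Hspa1b. The lowest, median and highest cell stood at -0.52, -0.066 and 0.19 in T1; -0.25, -0.0019 and 0.30 in T7; and -0.30, 0.025 and 0.29 in T9. It lay close to its surroundings in all 3 tumours. The bin of Polr2a, chr11:69601990-70100851, held 50 genes, among them Eif4a1, a translation initiation helicase, and Cd68, a macrophage marker. From lowest over median to highest cell the departures were -0.59, -0.30 and 0.42 in T1; -0.70, -0.018 and 0.57 in T7; and -0.38, 0.040 and 0.36 in T9. T1 lay low while the ranges overlapped throughout. In its depth the bin stood above its surroundings in every tumour, at 0.10, 0.22 and 0.23. Cells with the T1 kind of correction had -0.37 in T1, -0.38 in T7 and -0.19 in T9, and the rest had 0.10, 0.0088 and 0.048. The medians over cells of the T1 kind were low in all 3 tumours, but rest on 8 cells in T7 and 2 in T9. The log2 ratio is depth minus the correction, so value and kind are linked by computation. What lowers this bin was not tested. The bin of Rela, chr19:5634361-6161232, held 45 genes, with the long noncoding RNAs Malat1 and Neat1. Lowest, median and highest departures were -0.36, -0.035 and 0.16 in T1; -0.34, 0.023 and 0.31 in T7; and -0.17, 0.077 and 0.35 in T9. Its medians lay near 0.

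Some of the lowest bins were low in all 3 tumours, and that of Anxa11 was the lowest in T1 and T9. The bin chr14:25729651-26236710 holds Anxa11, an annexin that binds phospholipids, and the Duxbl and Cphx homeobox genes in several near-identical copies. Its cells had lowest, median and highest values of -1.46, -1.03 and -0.058 in T1; -1.45, -0.41 and 0.056 in T7; and -1.73, -0.57 and -0.020 in T9. All 47 T1 cells, 46 of 48 T7 cells and all 50 T9 cells lay below their surroundings. Its depth was also below them, by medians of -0.72, -0.25 and -0.38, so here depth and log2 ratio had 1 sign. The bin of Ccl21b, a chemokine that guides lymphocytes, was the lowest in T7. The bin chr4:41888237-42386163 had medians of -0.48, -0.48 and -0.54, and depths of -0.75, -0.90 and -1.14. Both bins hold repeated genes, and whether they differ in copy number or in mapping was not tested.

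Other bins were lower in T1 than in T7 and T9. The bin of Mcm7, chr5:137728683-138194304, encodes a subunit of the replicative DNA helicase and shares the bin with Cops6, a subunit of the COP9 signalosome. The lowest, median and highest cell stood at -1.07, -0.53 and 0.27 in T1; -0.55, 0.00048 and 0.49 in T7; and -0.61, 0.082 and 0.34 in T9. It was below its surroundings in 45 of 47 T1 cells, and the ranges overlapped. Its depth differed between the tumours in the same direction, at -0.13 in T1, 0.43 in T7 and 0.54 in T9. In cells with the T1 kind of correction it stood at -0.54, -0.43 and -0.52, and in the rest at -0.28, 0.0082 and 0.086. The bin chr14:50455541-50954511 holds olfactory receptors beside the DNA repair genes Parp2 and Apex1. From lowest over median to highest cell the departures were -0.83, -0.49 and 0.18 in T1; -0.62, -0.034 and 0.31 in T7; and -0.44, -0.0026 and 0.34 in T9. Its values within the T1 kind were -0.49, -0.36 and -0.40. The bin of Sumo2 and Grb2, chr11:115497332-115996193, holds a small protein modifier and an adaptor of growth factor receptors. Its medians were -0.45 (T1), -0.00075 (T7) and 0.18 (T9). A zinc finger bin, chr10:81669928-82169162, had -0.54, -0.11 and -0.11, and its depth was -0.55 in T1 but 0.11 and 0.13 in the others. The bin chr17:12734470-13255953, with the receptor gene Igf2r and the mitochondrial dismutase gene Sod2, was low in all 3, at -0.43, -0.20 and -0.24.

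The high bins of T1 were fewer and smaller in size. The highest, chr17:25187644-25689080, holds the mast cell tryptase gene Tpsab1 and the transcription factor gene Sox8. Lowest, median and highest departures were -0.33, 0.35 and 0.70 in T1; -0.68, -0.086 and 0.49 in T7; and -0.42, 0.010 and 0.32 in T9. It was above its surroundings in 43 of 47 T1 cells, in cells that overlapped those of T7 and T9. Within the T1 kind of correction its medians were 0.39, 0.29 and 0.17, and 0.091, -0.10 and -0.0022 in the rest. The bin of Sprr3 and Ivl, genes of the cornified envelope, was chr3:92356223-92856734. Its cells had lowest, median and highest values of -0.084, 0.33 and 0.76 in T1; -0.59, 0.000 and 0.41 in T7; and -0.48, 0.031 and 0.54 in T9. It was high in T1 although its depth lay below the surroundings in every tumour, at -0.46, -0.35 and -0.28. The neighbouring keratin bins of chromosome 15 were both high in T1. That with Krt7 had 0.27, 0.018 and 0.13, and that with Krt8 and Krt18, the keratins of simple epithelia, had 0.25, -0.00078 and 0.058.

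T7 and T9 had fewer departures than T1, and some were shared. The bin of Srsf2, a splicing factor, and Jmjd6 (chr11:116495057-116993918) had -0.063 in T1, 0.20 in T7 and 0.29 in T9. It was above its surroundings in 43 of 48 T7 cells and 48 of 50 T9 cells. The bin of Smn1, the motor neuron survival gene, and the Naip genes of innate immunity (chr13:100012907-100512460) had 0.085, 0.17 and 0.20. Among low bins, that of the Ugt1a genes, which make glucuronidating enzymes, had -0.041, -0.25 and -0.22 (chr1:87945072-88444665). These bins stood on the same side in T7 and T9. A departure of T9 alone lay at a step in the T9 level. No segments were called here, so whether a segment ends there was not tested. The bin of the chemokine receptor gene Ccr7 and of several keratins, chr11:99034872-99533734, had -0.39 in T9, below its surroundings in all 50 cells, against -0.0030 in T1 and -0.043 in T7. The T9 level was 0.061 over the 15 bins before it and -0.51 over the 15 after. It held in the 2 T9 cells of the T1 kind (-0.48) and in the other 48 (-0.38).

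**Figure D5:**
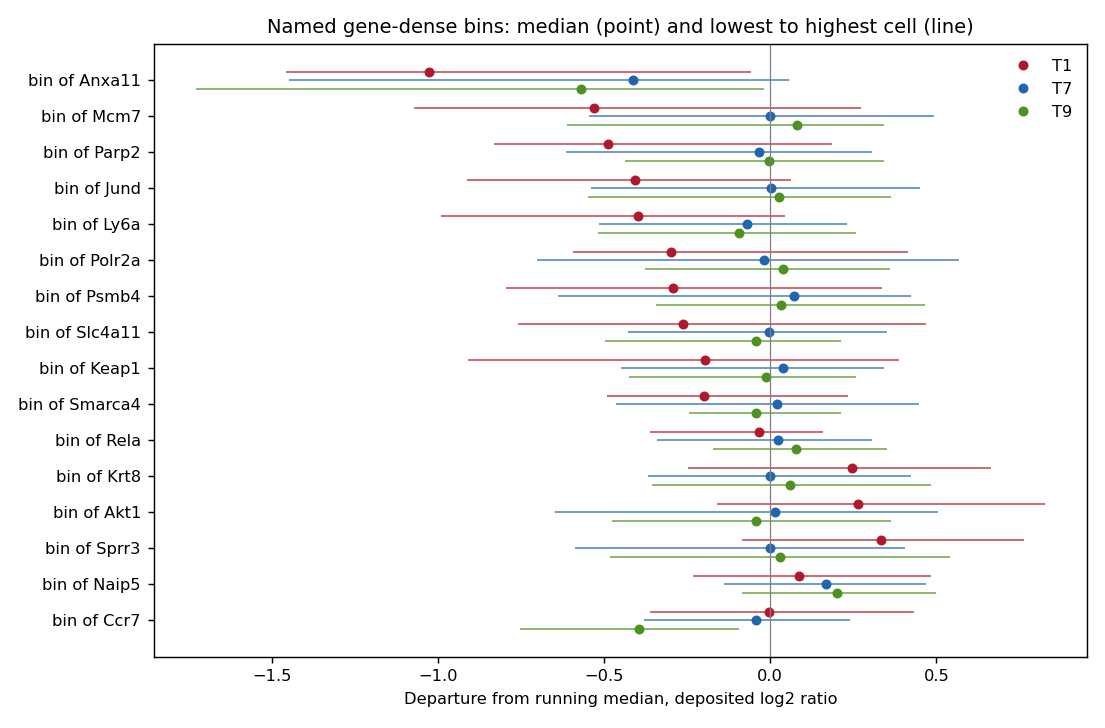
Departure from the running median (x axis, deposited log2 ratio) of 16 named gene-dense bins, each labelled with 1 of its genes. Points are medians and lines run from the lowest to the highest kept cell of each tumour. The bin of Anxa11 is the lowest gene-dense bin in T1 and T9, the bin of Ccr7 is low in T9 with a median of -0.39, and the lines of the tumours overlap in most bins.

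Genes of 6 lists were then looked up: 53 of 103 listed genes lay in 51 gene-dense bins. In T1, 20 of these 51 bins were low and 8 high (backgrounds 21.3% and 22.1%), with a median of -0.065. In T7, 1 was low and 0 high, and in T9, 1 low and 2 high. The T1 median of the 51 bins was close to that of all 517, -0.067. The counts of single lists are read against the 43.5% low and 11.6% high of all 517 gene-dense bins in T1. Among housekeeping genes 9 of 15 lay in 8 gene-dense bins, of which 5 were low and 1 high in T1. Besides Polr2a these included Psmb4 and Psmd4, subunits of the proteasome, in 1 bin at -0.29 in T1, 0.070 in T7 and 0.032 in T9. Among oncogenes 12 of 25 lay in 12 gene-dense bins, with 5 low and 1 high. The AP-1 subunit genes Jund and Junb lay in low bins, and the kinase gene Akt1 in the high one. For the bin of Jund, lowest, median and highest departures were -0.91, -0.41 and 0.061 in T1; -0.54, 0.0018 and 0.45 in T7; and -0.55, 0.027 and 0.36 in T9. The bin of Jund was low in T1, with cells of all tumours overlapping. The bin of Junb had -0.24, -0.014 and 0.016. For the bin of Akt1, lowest, median and highest departures were -0.16, 0.26 and 0.83 in T1; -0.65, 0.014 and 0.51 in T7; and -0.48, -0.042 and 0.36 in T9. The bin of Akt1 lay above its surroundings in 45 of 47 T1 cells.

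Among tumour suppressors 12 of 20 genes lay in 13 gene-dense bins, of which 5 were low and 2 high in T1. Keap1, the inhibitor of the oxidative stress factor NRF2, and Smarca4, an ATPase of the SWI/SNF remodelling complex, lie in adjacent bins of chromosome 9. For the bin of Keap1, lowest, median and highest departures were -0.91, -0.20 and 0.39 in T1; -0.45, 0.039 and 0.34 in T7; and -0.43, -0.012 and 0.26 in T9. For the bin of Smarca4, lowest, median and highest departures were -0.49, -0.20 and 0.23 in T1; -0.46, 0.021 and 0.45 in T7; and -0.24, -0.042 and 0.21 in T9. Both were low in T1 in the log2 ratio and above their surroundings in depth in all 3 tumours: the depth of the Keap1 bin was 0.54, 0.38 and 0.19. The T7 cells of the T1 kind had -0.31 for Keap1 and -0.36 for Smarca4, against 0.056 and 0.041 in the other T7 cells. Among alveolar and lung lineage genes 5 of 15 lay in gene-dense bins, with 1 low and 2 high. The high ones were the bins of Ager, an alveolar type 1 marker (0.18, -0.0059 and -0.050), and of Napsa, an aspartic protease of AT2 cells (0.15, 0.000 and 0.051). The low one was the bin of Scgb1a1, the club cell secretoglobin, at -0.21, -0.097 and 0.013. Among plasticity and mesenchymal genes 7 of 15 lay in gene-dense bins, with 3 low and 2 high. The high ones were the bin of Krt8, given above, and that of Plaur, the urokinase receptor gene (0.18, -0.010 and -0.038). Slc4a11, a membrane transporter gene, lay in a bin at -0.26, -0.0027 and -0.042, and Ly6a, which encodes the surface protein Sca-1, in a bin at -0.40, -0.069 and -0.094. Among replication and cell cycle genes 8 of 13 lay in 8 gene-dense bins, with 2 low, Mcm7 among them, and 1 high.

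Depth of sequencing went along with the offset to different degrees. Across the 47 T1 cells the offset of the log2 ratio and the sequenced bases had r = -0.24 and rho = -0.30, and offset and noise r = -0.50 and rho = -0.32. Across 48 T7 cells offset and sequenced bases had r = -0.67 and rho = -0.64, and across 50 T9 cells r = -0.51 and rho = -0.50. Without the 2 cells farthest in depth these r were -0.23 (T1), -0.60 (T7) and -0.34 (T9), so the T9 value rested in part on such cells. Offset and noise had r = 0.022 in T7 and -0.13 in T9, which turned to -0.19 and 0.31 without the 2 farthest cells, while that of T1 was -0.42. Cells with the T1 kind of correction had a higher median of sequenced bases, at 103.8, 93.0 and 81.0 Mb in T1, T7 and T9. The rest had 81.9, 66.0 and 56.4 Mb. This did not hold for each cell: T7 cells 180086 and 180091, of the T1 kind, had 52.1 and 37.2 Mb. Restricted to cells within the depth range of T9, the offset was -0.085 in 16 T1 cells, 0.0083 in 24 T7 cells and 0.0027 in 50 T9 cells. Promoter G and C content of 508 gene-dense bins went with T1 depth (r = 0.37, rho = 0.21) and with the T1 correction (r = 0.33, rho = 0.17), while with the T1 log2 ratio it had r = 0.0023 and rho = 0.019. In T7 and T9 it had r = 0.15 and 0.13 with the log2 ratio, 0.026 and -0.046 with depth, and -0.020 and -0.092 with the correction. Bins share neighbours and composition, so these too are descriptions without a p-value.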

How the data were processed

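The submitters' processing notes name BWA 0.7.17 as a tool and GRCm38 as the genome build for the reads of 150 single cells. Per the file headers, the authors deposited a coverage signal (depth per base), a log2 ratio and a weight score for each bin and cell. The sources used here do not give the steps behind the log2 correction and the weight, or the sorting and amplification, and 1 item of the mouse model is not reported here. All 450 value columns were matched to cells by name, and 0 columns belonged to no cell.

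Cells needed depth in 80% of autosomal bins and noise up to 0.267 (median plus 3 scaled median absolute deviations), so 3 T1 cells, 2 T7 cells and 0 T9 cells were left out. No 2 cells had identical columns. Departures were taken from a running median of 31 bins, fewer at chromosome ends. Log2 depth was taken relative to the cell's median, and values with no depth were left out. The kind of correction of a cell was set by the highest Pearson correlation of its correction with the tumour medians over the other bins. Named bins were the 5 with most genes, those most extreme in a tumour with the same sign in at least 80% of its cells, those with the largest differences between T1 and the mean of T7 and T9, and those of 12 listed genes. The members, lists and tests were chosen with earlier results of these data known. The offset was tested on simulated data. Doublets were not called here. Python 3.11.15, numpy 2.4.6, pandas 2.3.3, scipy 1.17.1 and matplotlib 3.10.9 were used. Alternatives changed the window, membership, calls, cells and bins.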

Additional observations from a re-analysis of the deposited data

How the results depend on the processing

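The offset of T1 stayed below 0 under every alternative run on the log2 ratio, from -0.12 with a running median that left out the gene-dense bins to -0.028 without the quartile of bins with the lowest weight. Its sign turned in depth alone. No paired analysis was possible because each group is 1 tumour, its cell numbers do not pair cells across tumours, and no test was made. The planned adjustment for G and C content was not run, since no genome was used here. Depth per bin and cell limits single cells, so bins are read as medians over cells. Of 387 values recomputed under alternatives, 274 kept within the spread of the main value, 108 moved beyond it and 5 changed sign. Counts of bins below show how far they move. Where no share over all autosomal bins stands beside a count, it is not read as above or below background.

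In log2 depth the offsets of T1, T7 and T9 were 0.12, 0.10 and 0.073, the differences from T1 turned to 0.025 (T7) and 0.052 (T9), and 0%, 0% and 2.00% of cells lay below 0. Low and high bins were 56 and 289 in T1, 69 and 249 in T7, and 98 and 240 in T9. In T1, 187 were higher than in T7, 153 lower than in T9 and 229 higher than in T9. Without the low-weight quartile the T1 offset was -0.028, T1 minus T9 -0.028 and the share of T1 cells below 0 85.1%. Of the 325 gene-dense bins left, 90 were low in T1, 4 in T7 and 10 in T9, 3 were high in T7 and 13 in T9, and 82 and 94 were lower in T1 than in T7 and T9. Of the 3279 other bins left, 451 were low in T1, 41 in T7 and 77 in T9, and 44 were high in T7 and 56 in T9.

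The split by kind of correction was chosen after seeing the data. Among cells nearest T1 the offset was -0.12 in T7 and -0.093 in T9, T1 minus T7 changed sign to 0.026 and T1 minus T9 to 0.0010, and 100%, 75% and 100% of cells of T1, T7 and T9 lay below 0. Low and high bins were 240 and 54 in T7 and 254 and 63 in T9. In T1, 55 were lower than in T7, 77 lower than in T9 and 109 higher than in T9. Among the rest the T1 offset was -0.029, T1 minus T9 -0.032, and 75% of T1 cells lay below 0. T1 had 91 low and 38 high bins and T7 26 high ones. In T1, 121 were lower and 36 higher than in T7, and 105 lower than in T9.

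A split by cell number was also chosen after seeing the data. Among lower-numbered cells the offset was below 0 in 83.3% for T7 and 12% for T9, T7 had 64 low bins, T9 had 42 high ones, and 144 were lower in T1 than in T7. Among higher-numbered cells the shares below 0 for T1, T7 and T9 were 100%, 12.5% and 52%, and T7 had 106 high bins. No share over all autosomal bins is given for either set, so these counts cannot be read as particular to gene-dense bins. With only cells whose level was nearest to their own tumour, also chosen after seeing the data, all 19 values were labelled the same.

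Counts moved with their own limits. Calls at 0.05 gave 93 high bins in T1, 64 low and 67 high in T7, 61 low and 78 high in T9, and 96 higher in T1 than in T7. Calls at 0.2 gave 106 low and 12 high in T1, 6 and 0 in T7, and 6 and 4 in T9, with 104 lower and 12 higher in T1 than in T7, and 115 lower and 20 higher than in T9. The top 5% by gene number held 126 low and 30 high bins in T1, 6 and 5 in T7, and 11 and 15 in T9, with 127 lower and 26 higher in T1 than in T7, and 138 and 35 against T9. The top 20% held 373 and 127 in T1, 33 and 27 in T7, and 36 and 44 in T9, with 354 and 101 against T7, and 372 and 141 against T9. Chromosomes 1, 3, 5, 12, 15, 16 and 19 alone held 84 and 17 in T1, 2 and 1 in T7, and 3 and 2 in T9, with 81 and 17 against T7, and 82 and 19 against T9. These 3 sets differ from the main one in the number of bins, so their counts cannot be compared with the main ones.

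Few of the remaining counts moved by over 1.5 times. In cells within the depth range of T9, T7 had 48 high bins, with no share over all autosomal bins given beside it. A running median of 15 bins left 10 high bins in T9, and one without gene-dense bins gave 24 low and 19 high in T7. Membership by protein-coding names, an alternative also chosen after seeing the data, left 8 low bins in T7. Without family bins 8 were low in T7 and 14 in T9. Without bins near chromosome ends 5 were high in T7.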

Other observations

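Further gene-dense bins that the rule for named bins picked are given here as values, in the deposited log2 ratio. The bin of Mapk3, an extracellular signal-regulated kinase gene, and Aldoa, a glycolytic enzyme gene, held 44 genes and had -0.17 in T1, 0.0090 in T7 and 0.046 in T9. A bin with the class I gene H2-K1 and the peptide transporter gene Tap1 held 43 genes and had 0.000, 0.029 and 0.00057. Bins low in T1 and nearer 0 in T7 and T9 included that of Msi1, an RNA-binding protein gene (-0.48, 0.049 and 0.015), and that of the tight junction genes Cldn6 and Cldn9 (-0.49, -0.14 and 0.00013). Bins higher in T1 than in the other tumours included that of Krt19 and Krt14, keratins of glandular and basal epithelium (0.19, -0.024 and -0.15), and that of Uhrf1, which maintains DNA methylation (0.15, -0.055 and -0.13). The bin of Tcf12, a helix-loop-helix factor gene, had 0.28, 0.084 and 0.041. Within the T1 kind of correction the 3 medians were 0.28, 0.37 and 0.26.

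Some bins were on the high side in T7 and T9. That of Rtel1, a helicase gene of telomere upkeep, had 0.14, 0.19 and 0.22. That of Jak3, a kinase gene of cytokine receptors, had -0.059 in T1 against 0.16 in T7 and 0.15 in T9. Bins low in all 3 tumours included that of the stress ligand genes Raet1e and H60b, with -0.29, -0.22 and -0.21, and that of Hmgcs1, an enzyme of cholesterol synthesis, with -0.44, -0.28 and -0.15. In depth the Raet1e bin lay above its surroundings, at 0.64, 0.49 and 0.49. The bin of Mllt6, Pcgf2 and Rpl19 had 0.22 in T9, -0.091 in T1 and -0.0035 in T7. The T9 level of the 15 bins before it was 0.042 and that of the 15 after it -0.51.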
